A study of Homo sapiens with 9 samples.

Results

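Lists of accessible chromatin were examined at 10 imprinted genes, namely H19, IGF2, KCNQ1OT1, CDKN1C, MEG3, DLK1, PEG3, SNRPN, PLAGL1 and GNAS. An accessible region was assigned to a gene when its centre fell inside the gene or no more than 20 kb from either end, on GRCh37. Of 106131 regions in the genome, 42 met this rule, and they lay at 9 of the 10 genes. PEG3 had 0. The rule uses gene positions and no measured value.

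The assay was ATAC-seq, which uses the transposase Tn5 to tag DNA that nucleosomes leave free. All 9 libraries came from K562, a line from a human chronic myeloid leukaemia. The wild type group was the parental line with no STAG2 mutation, the heterozygous group was a line labelled STAG2 R614* +/-, and the homozygous group was a line labelled STAG2 R614* -/-. Each group had 3 replicates, each mutant genotype was 1 line edited with CRISPR-Cas9, and the homozygous cells grew attached and were detached with trypsin before passage. Line, growth form and genotype therefore cannot be told apart, and peak lists cannot check the mutation itself. Nothing in the labels says that replicates were separate cultures, so the spread between them may be technical.

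An imprinted gene is expressed from the allele of 1 parent. The choice is set by a control region that carries DNA methylation on the maternal or the paternal copy. At H19 and IGF2 the control region is an insulator: CTCF binds the unmethylated maternal copy and keeps the shared enhancers from IGF2. Several of the other loci act through a long noncoding RNA whose start lies in the control region, as KCNQ1OT1 does for CDKN1C. STAG2 is a subunit of cohesin, the ring complex that CTCF halts on DNA at loop anchors. Peak lists do not separate the parental alleles, so the values below do not say which copy a peak came from. How many copies of each parental allele these cells carry, and whether imprinting is intact in them, was not measured.

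The H19 control region, taken as the 6 kb upstream of the H19 start, held 5 matches to the CTCF core CCNCNNGGNGGC, where N is any base. Both strands were searched, and all 5 matches lay on the minus strand of chromosome 11, the strand of H19. They are shown because peaks lay over 3 of them and not over the other 2. Capitals mark the core, and each line reads 5′ to 3′ on the minus strand of GRCh37. Numbers run away from H19.
H19 core 1, chr11:2021200-2021211: cggaagtggCCGCGCGGCGGCagtgcaggc
H19 core 2, chr11:2022012-2022023: cggaagtggCCGCGTGGCGGCagtgcaggc
H19 core 3, chr11:2023445-2023456: caaaagtggCCGCGCGGCGGCagtgcaggc
H19 core 4, chr11:2023846-2023857: cggaagtggCCGCGCGGCGGCagtgcaggc
H19 core 5, chr11:2024251-2024262: cagaagtggCCGCGCGGCGGCagtgcaggc

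For 3 of the 5 regions that differed between a pair of genotypes, the sequence is shown as 240 bases around their centre, on the plus strand of GRCh37, with any CTCF core in capitals (read there on the opposite strand). The first 2 were in all libraries of a genotype and none of another in 2 comparisons each and the third holds a CTCF core.
GNAS-AS1 start, chr20:57425864-57426103: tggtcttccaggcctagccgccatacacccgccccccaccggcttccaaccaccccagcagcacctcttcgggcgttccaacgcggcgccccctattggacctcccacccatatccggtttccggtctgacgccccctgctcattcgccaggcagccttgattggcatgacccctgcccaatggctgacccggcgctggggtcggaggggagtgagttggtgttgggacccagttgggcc
Downstream of H19, chr11:2000144-2000383: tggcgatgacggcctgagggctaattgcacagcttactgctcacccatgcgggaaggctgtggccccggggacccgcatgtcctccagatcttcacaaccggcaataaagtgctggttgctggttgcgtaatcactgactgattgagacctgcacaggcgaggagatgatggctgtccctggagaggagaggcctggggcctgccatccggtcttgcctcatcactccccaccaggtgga
Upstream of CDKN1C, chr11:2911972-2912211: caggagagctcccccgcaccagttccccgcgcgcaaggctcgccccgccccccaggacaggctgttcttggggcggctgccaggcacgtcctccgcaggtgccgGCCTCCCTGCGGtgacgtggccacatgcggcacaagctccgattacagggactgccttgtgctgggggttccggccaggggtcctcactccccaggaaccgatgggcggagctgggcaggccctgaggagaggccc

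The full lists held between 181407 and 319697 peaks per library, and the depth behind them is unknown. Lists were therefore cut to the 50000 peaks with the highest −log10 p, and a peak's percentile is its rank among these 50000, with 0 for an absent peak. The −log10 p at rank 50000 ranged from 4.95 to 6.73, so −log10 p values of different lists are not on one scale. Wild type replicate 3 and heterozygous replicate 1 shared 46% of the intervals of the shorter list, base for base, including 30 intervals at these genes. Wild type replicates 1 and 2 shared 23.2%, with 5 at these genes, and every other pair shared at most 1.17%. Of 8 K562 markers, 5 had a peak within 1 kb of a start in all 9 libraries, whereas GATA1 and KLF1, erythroid transcription factors, had one in 0. Of 3 fibroblast markers, COL1A1 and COL1A2 had one in all 9 libraries, as did EPCAM of 3 epithelial markers and 0 of 3 T cell markers. What those marker peaks mean for the loci below was not tested.

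The imprinted genes held 20, 22 and 18 of the 50000 peaks in wild type replicates 1 to 3. They held 16, 17 and 19 in the heterozygous and 18, 19 and 16 in the homozygous libraries. The means were 20 ± 2, 17.3 ± 1.53 and 17.7 ± 1.53 (SD, n = 3), and the 3 ranges overlapped. Per 10000 peaks of the full lists, the means were 2.64 ± 0.165, 2.92 ± 0.243 and 2.9 ± 0.308 (SD, n = 3), so the order of wild type and the mutant lines depended on the lists used. Of the 42 regions, 7 (16.7%) were present in all 9 libraries and 11 (26.2%) in 1 library. Over all regions these shares were 18.1% and 30.4%.

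**Figure D1:**
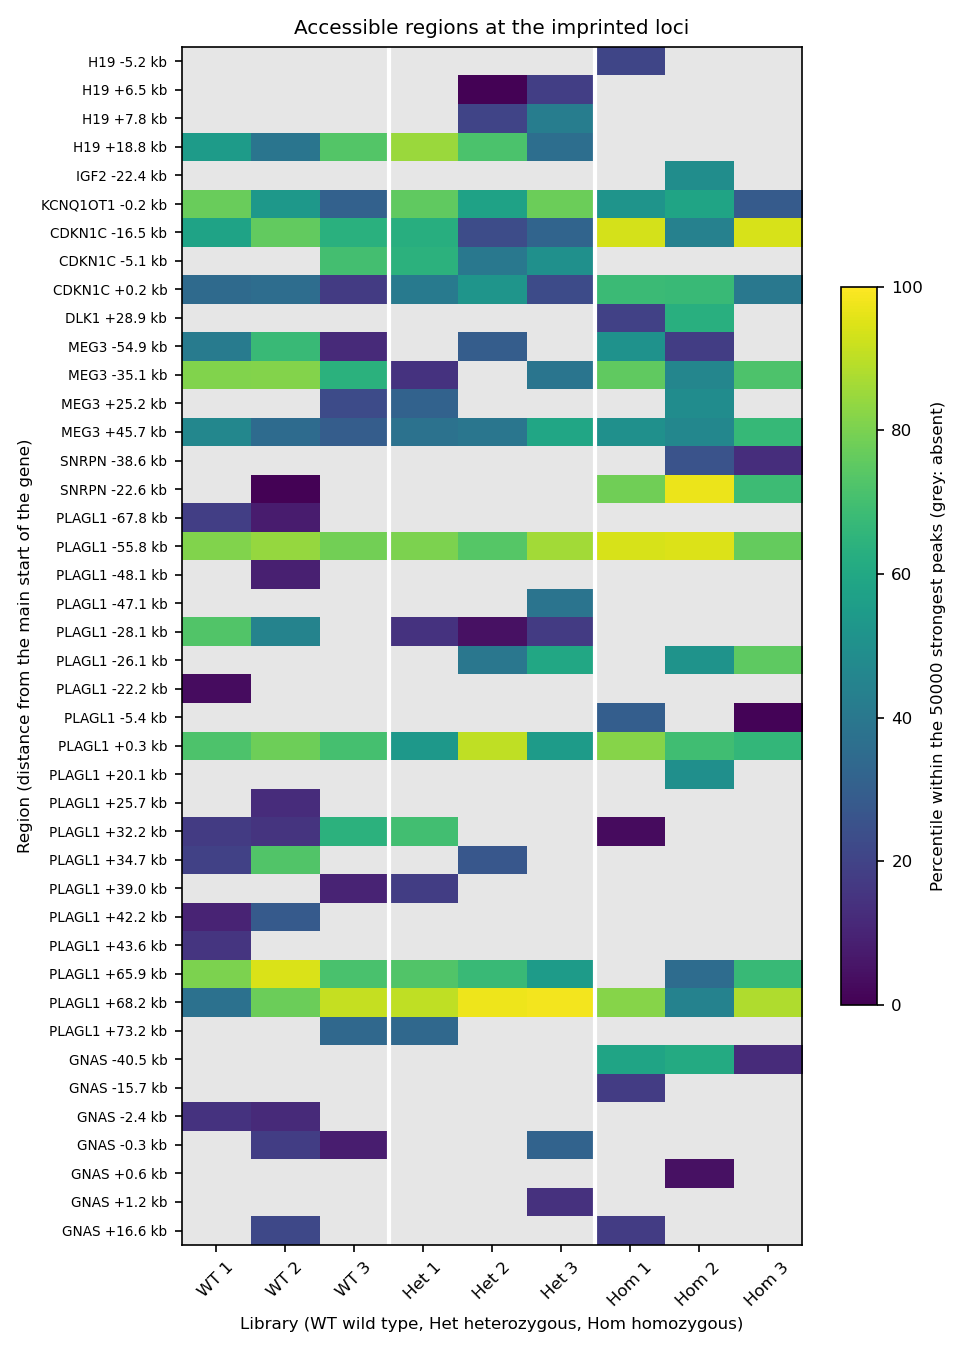
Rank percentile of each of the 42 regions (rows, by gene and distance from its main start in kb) in the 9 libraries (columns), with grey where a region was absent from the 50000 strongest peaks. Only 7 rows are filled in all 9 columns, and the GNAS row 40.5 kb upstream is filled in the 3 homozygous columns alone.

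Control regions differed in how many libraries had a peak. Of 10 windows placed on known control regions, 2 had a peak among the 50000 in all 9 libraries, 3 in some libraries and 5 in none. In the full lists, 2 windows had a peak in all 9, 5 in some and 3 in none.

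The 2 windows with a peak in every library were the starts of KCNQ1OT1 and of PLAGL1 with HYMAI. KCNQ1OT1 is the antisense RNA whose start, within KCNQ1, is the control region KvDMR1. Its region at chr11:2720306-2722519, in an intron of KCNQ1, had percentiles of 77.1, 53.4 and 30.9 in wild type, 75.4, 57.6 and 77.7 in heterozygous and 51.7, 58.5 and 28.7 in homozygous replicates 1 to 3. The ranges overlapped, and the exact permutation test over genotypes gave p = 0.275.

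PLAGL1 encodes a zinc finger transcription factor, and HYMAI is an RNA that starts beside it. Their shared region, chr6:144328215-144329923, covers the HYMAI exon and an intron of PLAGL1. Its percentiles were 72.1, 77.9 and 70.4 in wild type, 53.5, 90.6 and 54.8 in heterozygous and 81.9, 69.2 and 66.4 in homozygous libraries. The genotypes overlapped again (exact permutation p = 0.789). Neither window held a match to the CTCF core.

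**Figure D2:**
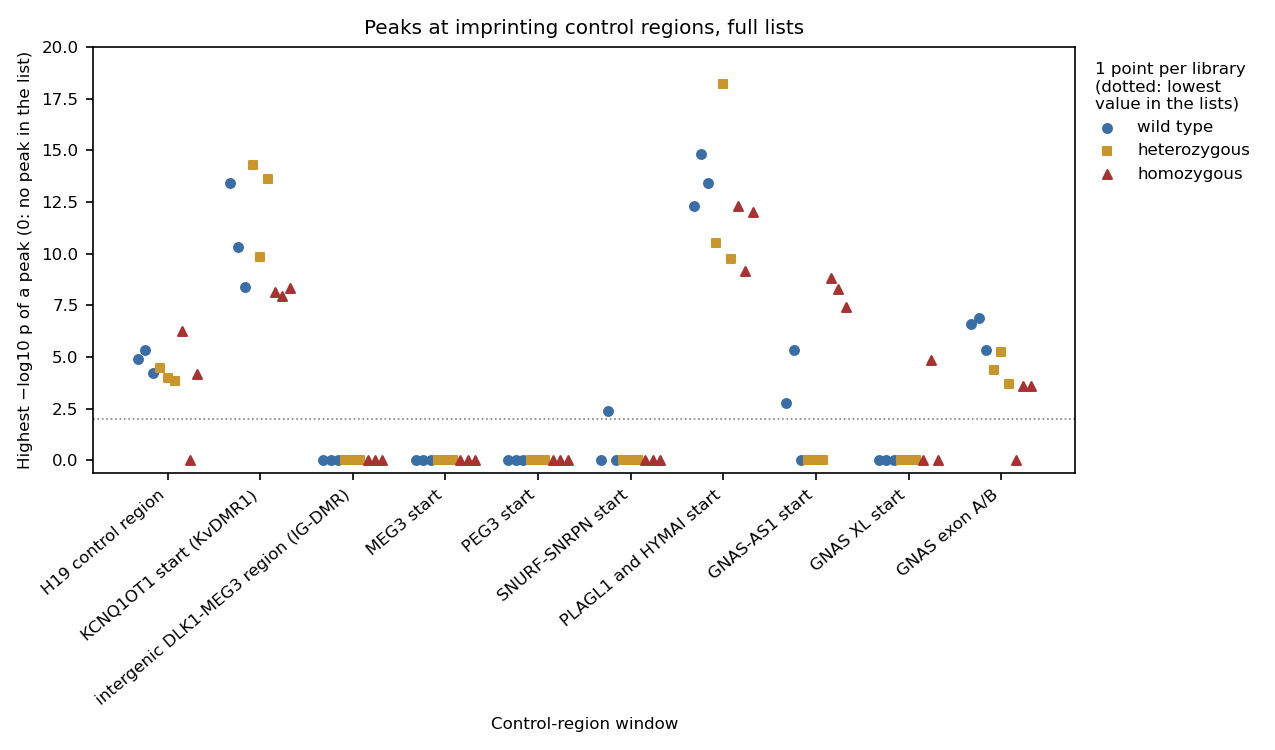
Highest −log10 p of any peak of the full list in each of the 10 control-region windows, 1 point per library, with 0 where the list had no peak. KvDMR1 and the PLAGL1 and HYMAI start lie above the rest in most libraries, and the GNAS-AS1 start has its highest points in the 3 homozygous libraries.

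No full list had an interval in 3 windows. These were the region between DLK1 and MEG3, the MEG3 start and the PEG3 start. The first is the germline control region of a locus where the RNA MEG3 is maternal and DLK1, a Notch family ligand, is paternal. At the SNURF-SNRPN start, control region of the Prader-Willi and Angelman locus, a single peak was listed, in wild type replicate 2, with a −log10 p of 2.39 against a lowest listed value of 2.

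The H19 control region lay between these extremes. Peaks were listed there in 8 of 9 full lists, all but that of homozygous replicate 2, but among the 50000 strongest in homozygous replicate 1 alone, at a percentile of 20.8. The highest −log10 p in the window was 4.88, 5.32 and 4.20 in wild type, 4.45, 3.99 and 3.84 in heterozygous and 6.27, none and 4.17 in homozygous replicates 1 to 3. Most of these peaks were thus too weak for the comparison by rank.

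The full lists merged into 5 sites in the window, 3 over a CTCF core and 2 over none. Intervals covered core 5 in 6 full lists, those of the 3 wild type libraries, heterozygous replicate 1 and homozygous replicates 1 and 3. Core 3 was also covered in 6 lists, those of the 3 wild type libraries, heterozygous replicates 1 and 2 and homozygous replicate 3. Over both cores, wild type replicate 3 and heterozygous replicate 1 had the same interval base for base, so they may not be separate observations. No other heterozygous list covered core 5. Core 2 was covered in wild type replicates 1 and 2. Cores 1 and 4 were covered in 0 lists, although their 30 printed bases are identical to each other.

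The sites over cores 2, 3 and 5 had centres 2.97, 4.37 and 5.19 kb upstream of the H19 start, beside cores centred 2.95, 4.38 and 5.18 kb upstream. The sites over no core had centres 0.251 kb upstream, in wild type replicate 3, heterozygous replicates 1 and 2 and homozygous replicate 3, and 1.43 kb upstream, in heterozygous replicate 3, whose list had no other interval in the window. The cores lie in repeats: of the 30-base words around each, 18.8%, 17%, 12.8%, 15.1% and 3.93% recurred elsewhere on chromosome 11, for cores 1 to 5. Of 413 words of the read length, 100 bases, 0 recurred around any core. In the other windows 8 matches were counted, 1 of them in 2 windows that overlap, and 0 lay under a peak. Over the genome 6.4% of regions held the core in the 500 bases around their centre, and 6 of the 42 regions (14.3%) did. The median share of G and C in those bases was 47.4% over all regions and 54.2% over the 42. Among regions present in all 9 libraries, with a median of 56.4%, 10.1% held the core. The part of base composition in this difference was not tested.

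**Figure D3:**
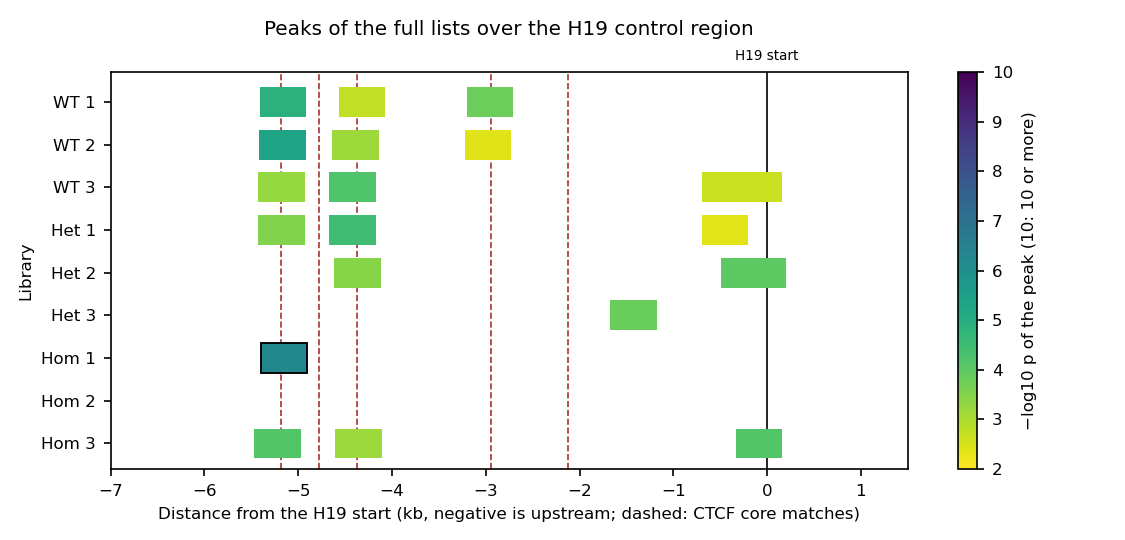
Intervals of the 9 full lists (rows) from 7 kb upstream to 1.5 kb downstream of the H19 start, coloured by −log10 p, with the 5 CTCF core matches as dashed lines and a black outline where a peak was among the 50000 strongest. Intervals stand on the cores 2.95, 4.38 and 5.18 kb upstream and, away from any core, around 0.251 kb (4 lists) and 1.43 kb (1 list) upstream, and the 1 outlined interval belongs to homozygous replicate 1.

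At the promoters, H19 itself, an abundant fetal RNA, had a weak peak in 4 full lists and in 0 of the lists of 50000. IGF2, a fetal growth factor, had no interval within 1 kb of its main start in any list, and neither did DLK1, MEG3 or PEG3. The promoter of CDKN1C, an inhibitor of cyclin-dependent kinases, had a peak in all 9 libraries. Its region at chr11:2906107-2907526 had percentiles of 34.4, 35.6 and 17.3 in wild type, 40.9, 52.3 and 23 in heterozygous and 68.3, 67.7 and 40.1 in homozygous libraries. Each homozygous value lay above each wild type value, by 29.6 percentile points in the means, but the test over genotypes gave an exact permutation p of 0.0893. For scale, 43.9% of 18878 MANE Select starts, 1 chosen transcript per coding gene, had a peak of the 50000 within 1 kb in all 9 libraries, and 32.5% in none.

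PEG3, a zinc finger gene expressed from the paternal copy, lay in a stretch without any interval in any of the 9 full lists. The stretch ran from 57282273 to 57375489 on chromosome 19, 93.2 kb, the second longest such stretch on that chromosome. The lists used here may not hold every row of the originals, and what these values mean for PEG3 depends on that. The third had the same length to 3 digits, and the longest spanned 3878 kb.

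Homozygous and wild type libraries differed at 2 of the 38 regions present in either group. A region counted as different when all 3 libraries of a genotype had it among their 50000 peaks and 0 of 3 of the other did. In the homozygous direction this held for 1 of 38, against 2.75% of all regions, and in the wild type direction for 1 of 38, against 3.47%. Both counts are near these shares.

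The region present in homozygous and not in wild type libraries was the start of GNAS-AS1, the antisense RNA of the GNAS cluster, whose start lies in a control region of that cluster. It spans chr20:57425677-57426290, in an intron of GNAS and centred 26 bp from the GNAS-AS1 start. Its percentiles were 58.5, 61.2 and 12.2 in homozygous replicates 1 to 3 and 0 in the other 6 libraries. The difference in means was 44 (44 ± 27.5 against 0, SD, n = 3), the exact permutation p was 0.0357 and the Benjamini-Hochberg adjusted p over all regions was 0.373. Presence in the 3 homozygous libraries alone fixes this unadjusted p whatever the percentiles, so it restates the call and is no separate support. In the full lists the −log10 p was 8.81, 8.28 and 7.41 in homozygous libraries. It was 2.78 and 5.33 in wild type replicates 1 and 2, and the third wild type and all 3 heterozygous lists had no peak.

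The call against wild type therefore ended in the full lists, and also with 100000 peaks, where 1 wild type library had the region. It ended likewise with equal peak numbers per chromosome, where 2 of 3 homozygous libraries kept the region, at a −log10 q of at least 5, where 2 did, and with 20000 peaks, where 1 did. The last 3 settings also ended the call against heterozygous libraries given below. The share of the 50000 peaks on chromosome 20 was 1.5% ± 0.0395 for wild type, 1.66% ± 0.0306 for heterozygous and 1.85% ± 0.0623 for homozygous libraries (SD, n = 3). On it 3.58% of regions were called in the homozygous direction against wild type. The part of this chromosome share in the result was not tested.

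GNAS encodes the stimulatory G protein alpha subunit, Gs-alpha, from 1 of several starts. The start of the XL transcript and that of NESP55 had a peak in homozygous replicate 2 alone, each with a −log10 p of 4.83. Exon A/B, the control region next to the Gs-alpha promoter, had a peak in 8 full lists and among the 50000 in wild type replicates 1 and 2, at percentiles of 14.6 and 12.1. The Gs-alpha start had a peak in all 9 full lists and in 4 lists of 50000. Neither is a difference by the rule above.

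**Figure D4:**
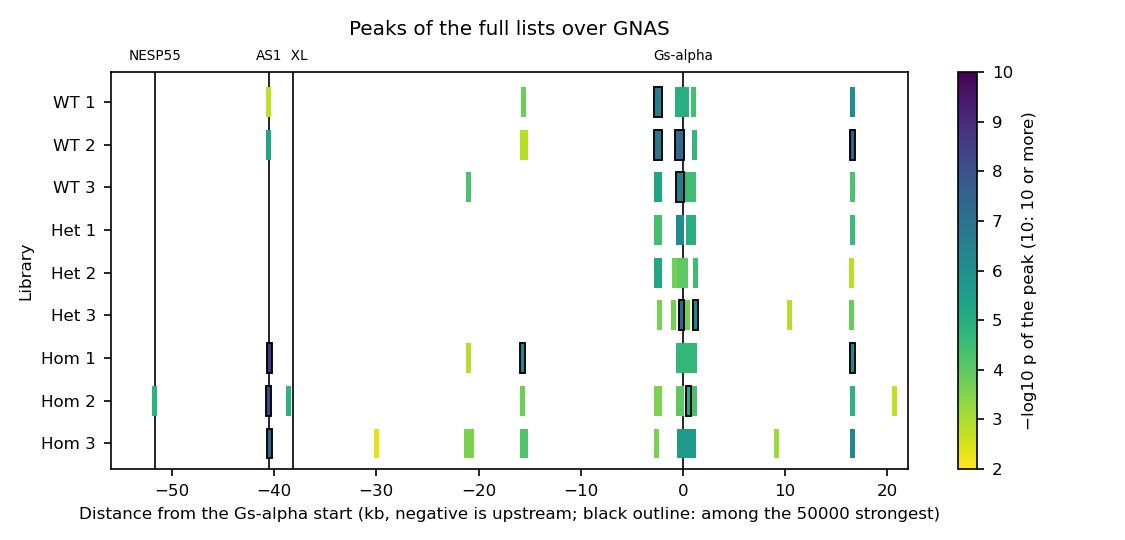
Intervals of the 9 full lists (rows) over GNAS by distance in kb from the Gs-alpha start, coloured by −log10 p and outlined in black where among the 50000 strongest, with the starts of NESP55, GNAS-AS1 (AS1), XL and Gs-alpha as lines. Outlined intervals at AS1 occur in the 3 homozygous rows, while the interval beside exon A/B, 2.42 kb upstream, is outlined in wild type rows 1 and 2.

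The region present in wild type and not in homozygous libraries lay 18.8 kb downstream of the H19 start, at chr11:1999931-2000596 in an intron of MRPL23, a mitochondrial ribosomal protein gene. Its percentiles were 54.9, 38.9 and 73.4 in wild type, 84.8, 71.5 and 36.3 in heterozygous and 0 in all 3 homozygous libraries. All 6 libraries of the former genotypes lay above the homozygous ones (exact permutation p = 0.0286, Benjamini-Hochberg adjusted p over all regions 0.373). As the call used these same values, the p is no separate support. In the full lists homozygous replicate 2 had a weak peak there, with a −log10 p of 3.75, and the wild type values were 9.80, 8.80 and 14. With 20000 peaks the call ended, since 1 wild type and 2 heterozygous libraries kept the region. The region held no CTCF core in the bases shown.

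Homozygous and heterozygous libraries differed at 5 of 35 regions. The homozygous direction had 2 of 35 (5.71%), against 3.16% of all regions, and the heterozygous direction 3 of 35 (8.57%), against 3.41%. The GNAS-AS1 start and the region downstream of H19 were among these 5. With absence required in the full lists, the GNAS-AS1 start was the 1 region left.

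The second homozygous region lay 22.6 kb upstream of the SNRPN main start, at chr15:25177251-25177764 in an intron of SNRPN, a gene for a spliceosome protein. Its percentiles were 78.3, 96.9 and 68.6 in homozygous libraries, 0.476 in wild type replicate 2 and 0 in the other 5. The exact permutation p was 0.0357 and the Benjamini-Hochberg adjusted p over all regions 0.373. The region was called on these same values, so the p is no separate support. It was not lacking elsewhere: the full lists gave −log10 p values of 2.78, 6.44 and 5.31 in wild type and 4.54, 2.85 and none in heterozygous libraries, against 11.5, 19.3 and 12.4 in homozygous ones. With 20000 peaks it was in the 3 homozygous libraries and 0 of the other 6, while with 100000 peaks the call ended. Of its 30-base words, 27% recurred on chromosome 15, and 0 of its 100-base words did. The share of peaks on chromosome 15 was 2.64% ± 0.153 for wild type, 2.81% ± 0.0693 for heterozygous and 3.15% ± 0.042 for homozygous libraries (SD, n = 3), and 3.31% of its regions were called in the homozygous direction against heterozygous. The part of that share in the result was not tested.

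The other 2 heterozygous regions were near CDKN1C and PLAGL1. The one 5.09 kb upstream of CDKN1C, chr11:2911822-2912360 in an intron of SLC22A18AS, holds the CTCF core printed above. Its percentiles were 64.3, 40.2 and 50.3 in heterozygous and 0 in homozygous libraries, and 70.1 in wild type replicate 3 alone of that genotype. Heterozygous replicate 1 and wild type replicate 3 are the lists that share intervals. In the full lists all 9 libraries had a peak there, with −log10 p values of 2.30, 3.80 and 5.57 in homozygous libraries, and the call ended with 20000 or 100000 peaks.

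The region 28.1 kb upstream of the PLAGL1 start, chr6:144357006-144357971 in an intron of that gene, had percentiles of 14.6, 4.32 and 17.5 in heterozygous, 72.8, 44.7 and 0 in wild type and 0 in homozygous libraries. It too was in all 9 full lists, and the call ended with 20000 or 100000 peaks and at a −log10 q of at least 5, where 0 heterozygous and 2 wild type libraries had it. The exact permutation p was 0.143 for the region at CDKN1C and 0.121 for this one.

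Heterozygous and wild type libraries differed at 0 of 33 regions, against 0.423% of all regions in the heterozygous direction and 0.515% in the wild type direction. This count depends on the pair of lists that share intervals. Without wild type replicate 3 it was 4, and without heterozygous replicate 1 it was also 4, under a rule that then asks for 2 libraries of the smaller group. The share of all regions under that looser rule was not computed. The counts of 4 therefore cannot be set against 0.423% or 0.515%.

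Tested over the 3 genotypes by percentile, 5 of 42 regions had an unadjusted exact permutation p under 0.05, against 10.6% of all regions. After Benjamini-Hochberg adjustment 0 of 106131 regions passed, among 11292 unadjusted. Besides the 3 regions with p of 0.0286 or 0.0357 given above, these were a region at MEG3 and one at PLAGL1. The first, chr14:101256729-101257882, lay 35.1 kb upstream of the MEG3 start used here, in an intron of MEG3 transcripts that begin further upstream. It had percentiles of 81, 81.4 and 64 in wild type, 14.8, 0 and 39 in heterozygous and 75.7, 46 and 72.1 in homozygous libraries. Its heterozygous values lay below all 6 others (exact permutation p = 0.0179, adjusted p 0.373 over all regions). The region at chr6:144263187-144263795, over a coding exon of PLAGL1, had 80.4, 94.3 and 71.3 in wild type, 72.8, 67.6 and 55 in heterozygous and 0, 35.3 and 67.3 in homozygous libraries. There every wild type value lay above every homozygous value (exact permutation p = 0.0464, adjusted p 0.436 over all regions).

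Other regions were present in all 9 libraries. PLAGL1 had one 55.8 kb upstream of its start, chr6:144384315-144386119, next to another PLAGL1 start, at percentiles between 73.5 and 94.8 in the 9 libraries. A second, intergenic, 68.2 kb downstream at chr6:144260845-144261645, ranged from 37.3 to 98.1. Near CDKN1C, the region 16.5 kb upstream at chr11:2922728-2924190, in introns of SLC22A18 and SLC22A18AS, ranged from 23.1 to 94.1. At MEG3, chr14:101337385-101338970 ranged from 29.4 to 67, and 9.75% of its 100-base words recurred on chromosome 14. With KvDMR1, the PLAGL1 and HYMAI start and the CDKN1C promoter these are the 7 regions present in all 9 libraries.

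The remaining named regions were present in fewer libraries. At MEG3, chr14:101237027-101238020 was present in 6 libraries, in 3 wild type, 1 heterozygous and 2 homozygous. The 1 region of IGF2 lay 518 bp from the INS start and was in homozygous replicate 2 alone, at a percentile of 49.1. The 1 region of DLK1, 28.9 kb downstream, was in homozygous replicates 1 and 2, at 19.3 and 63. Beside H19, a region 7.8 kb downstream was in heterozygous replicates 2 and 3, at 20.4 and 42.5. A region 38.6 kb upstream of SNRPN was in homozygous replicates 2 and 3, at 25.5 and 13.1, and one 16.6 kb downstream of the Gs-alpha start was in wild type replicate 2 and homozygous replicate 1, at 21.6 and 17.9.

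PLAGL1 had the lowest p of the 10 genes for its number of peaks. It had 12, 11 and 8 of the 50000 in wild type, 8, 8 and 7 in heterozygous and 6, 6 and 7 in homozygous libraries. Every wild type count exceeded every homozygous count, the exact permutation p was 0.0214, and the Benjamini-Hochberg adjusted p over all genes was 0.457. Under the alternatives the unadjusted exact permutation p ranged from 0.00714 to 0.314. It was 0.314 with 20000 peaks, 0.0556 with a replicate block and between 0.0571 and 0.0679 without any 1 heterozygous or homozygous library. PLAGL1 was the 1 of 9 testable genes with an unadjusted p under 0.05, against 8.84% of all genes. Counts from the full lists were 29, 41 and 32, then 31, 24 and 34, then 24, 20 and 31, and the ranges of wild type and homozygous libraries overlapped. After adjustment 0 of 35123 genes passed in this exact permutation test, among 3104 unadjusted.

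The other genes had fewer peaks. H19 had 1 in each wild type library, 1, 3 and 3 in heterozygous and 1, 0 and 0 in homozygous ones (exact permutation p = 0.0714). SNRPN had 0, 1 and 0, then 0 in each heterozygous library, then 1, 2 and 2 (exact permutation p = 0.0714). KCNQ1OT1 had 1 in every library. GNAS had 1, 3 and 1, then 0, 0 and 2, then 3, 2 and 1, and its genotypes overlapped. Fewer peaks in homozygous than in wild type libraries on average were counted at 3 of the 10 genes, more at 4 and equal numbers at 3.

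**Figure D5:**
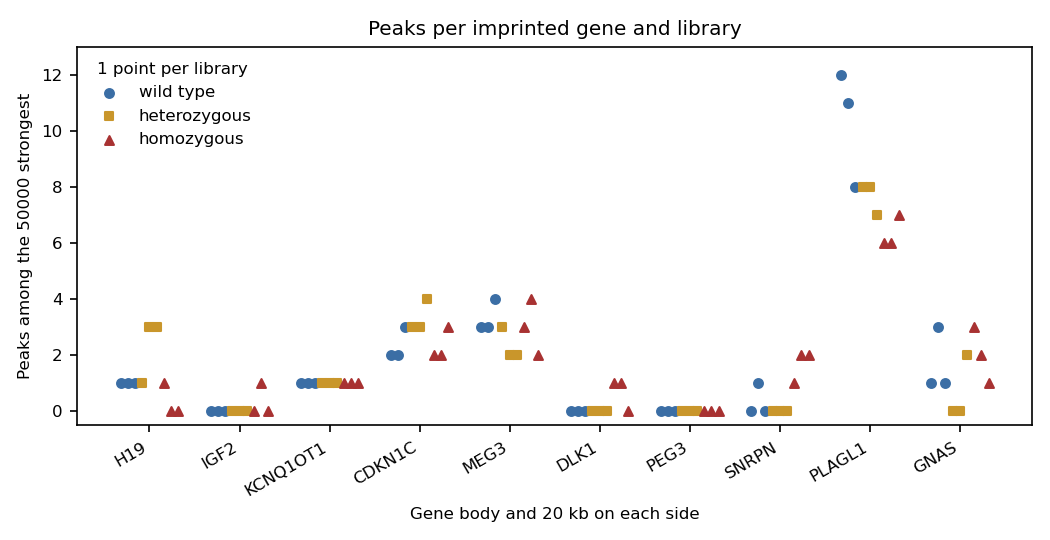
Number of the 50000 strongest peaks per library at each of the 10 genes with 20 kb on each side, 1 point per library. PLAGL1 spans 6 to 12 peaks, with 6 or 7 in the homozygous libraries, while PEG3 is at 0 throughout.

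Another 30 imprinted genes were counted in the same way, among them HYMAI, INS and GNAS-AS1, which share peaks with PLAGL1, IGF2 and GNAS. KCNQ1 and SLC22A18 are also among them, and regions of KCNQ1OT1 and CDKN1C lie in their introns. Further genes of the 30 may share peaks with the 10 genes, so the lists are not independent. Of the 30, 28 had a peak, and 1 of these had an unadjusted exact permutation p under 0.05, against 8.84% of all genes. It was GNAS-AS1 (exact permutation p = 0.0357, adjusted p 0.457 over all genes), which is the region described above. Peaks were more frequent in homozygous than wild type libraries at 12 and less frequent at 8. The median difference was 0 peaks in this list, among the 10 genes and among all genes, of which 45.3% had more and 35.9% fewer. ZIM2, next to PEG3, had 0 peaks in all lists of 50000.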

How the data were processed

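Each of the 9 libraries had 1 deposited peak list, so peaks were called per library. The submitters' processing notes name cutadapt, Bowtie2 2.2.9, Picard, MACS2 2.1.0 and the build hg19 (GRCh37). Their settings, and whether reads were shifted for Tn5, are not given in the sources used here. The lists have no header. By the narrowPeak format, each deposited peak carries a fold enrichment and 2 significance columns, −log10 p and −log10 q, from the authors' caller. These are the authors' values per peak and were used only to describe and rank peaks within a list. No list holds read counts, so the depth is unknown.

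Chromosome Y was left out. The 50000 with the highest −log10 p per library were merged into regions wherever they overlapped by 1 bp or more. Genes came from GENCODE release 44 on GRCh37. The member genes and lists were chosen with earlier results of these data known. Named regions are those in a control-region window or within 1 kb of a main start, those that differed between genotypes, and the 3 with the highest mean percentile per locus. The H19 and MEG3 starts are those most transcripts share (7 of 31 and 9 of 50), chosen after the annotation and nearby peaks were seen, because the canonical transcripts begin at distant starts. The search for words of 30 bases was added after words of 100 bases gave 0 for nearly all regions, and the sequences shown were chosen after values were seen. Some marker genes and sequences are not reported here.

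The exact permutation test used the sum of squares between genotypes over 280 assignments of libraries, two-sided in effect, with a smallest p of 0.00357. A pair of genotypes cannot give an exact p under 0.1. Code was tested on simulated data (Python 3.11.15, numpy 2.4.6, pandas 2.3.3). Alternatives covered list length, ranking, distance, overlap, the block and each library left out.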

Additional observations from a re-analysis of the deposited data

How the results depend on the processing

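Across 22 settings, 21 of 486 values for single genes and regions changed sign. That count leaves out moves from 0, as for CDKN1C peaks, 0 at first, 1.33 with 100000 peaks and -1 in the gene body. With a smallest p of 0.00357, adjusted values had little room to pass, so staying under the threshold shows no stability. The number of genes that passed adjustment was 0 under each setting run for it, also with a replicate block, where 0 passed and 212 of all genes had an unadjusted p under 0.05. Same-numbered libraries correlated between -0.304 and 0.178 in their deviations from the genotype means, and other pairs between -0.315 and 0.413. The value of 0.413 belonged to wild type replicate 3 and heterozygous replicate 1, which share intervals. The range of same-numbered pairs lay inside that of the others. Whether a batch was shared by number was not tested.

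The counts below do not follow the same regions. Between homozygous and wild type libraries the count of 2 went to 1 with 20000 peaks, with full lists, within 10 kb and in the gene body alone, and 0 when absence was required in the full lists. With 20000 peaks or full lists neither of the 2 original regions was called. Leaving out 1 library gave 2 to 7, with 7 without wild type replicate 3 and 5 without homozygous replicate 1. Between homozygous and heterozygous libraries the count of 5 went to 1 with 20000 peaks, 3 with full lists, 3 at a −log10 q of at least 5, 3 in the gene body and 1 when absent from the full lists, and 5 to 7 without 1 library. In the full lists the GNAS-AS1 start was the 1 of the 5 still called. Between heterozygous and wild type libraries the count of 0 went to 1 with 20000 peaks, 4 with 1 list of each pair that shares intervals, and 0 to 4 without 1 library, with 1 without heterozygous replicate 2. Leaving out a library relaxes the rule itself. For none of these settings was the share of all regions computed, so the counts have no background to be read against.

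Homozygous minus wild type values near 0 changed sign. For peaks per gene, H19 went to 0.333 within 10 kb and 0.333 in the gene body, MEG3 to 1.67 in full lists and GNAS to -0.333 with equal numbers per chromosome. Without 1 library GNAS ranged from -0.167 to 1 and MEG3 from -0.833 to 0.167. For percentiles, KCNQ1OT1 went to 2.68 by fold enrichment, the GNAS region 16.6 kb downstream to 9.55 with 100000 peaks and 5.95 with 1 list of each sharing pair, and the PLAGL1 start to 1.24 with 1 list of each sharing pair. Without 1 library the PLAGL1 region 68.2 kb downstream ranged from -13 to 16.2, KCNQ1OT1 from -19 to 4.14, the PLAGL1 start from -5.71 to 2.07 and the GNAS region from -7.2 to 5.95. The cause of these changes was not tested. The unknown depth limits what absence from a list can show.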
